A study of Mus musculus with 28 samples.

Results

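The 10 genes described here are transcripts used as markers of the stem cells at the base of intestinal crypts. They are Lgr5, Olfm4, Ascl2, Smoc2, Tnfrsf19, Rgmb, Cdca7, Prom1, Lrig1 and Msi1, chosen by name. All 10 were found among the 29413 genes of the BMP table and the 55416 genes of the TGFb table, and all 10 passed the filters on low values in both. The samples were mouse small-intestinal organoids, epithelial cultures that were grown from crypts of wild-type C57BL/6 mice in medium without added BMP or Tgfb. The BMP table held 4 untreated samples (replicates II, III, IV and VI), 4 samples given recombinant BMP2 (the same numbers), 3 given BMP3 (II, III and IV) and 3 each given BMP4, BMP5 or BMP7 (II, III and VI). In the TGFb table there were 3 samples without ligand and 3 given recombinant Tgfb, numbered I to III in each group. Every ligand was given at 500 ng/ml for 24 h, at a single dose and time. The labels do not say whether samples of a group were separate cultures or animals, so the p-values measure only the spread between these samples, which may be technical.

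Stem cells at the crypt base divide under high Wnt signalling, where R-spondin binds LGR receptors and keeps Wnt receptors on the cell surface. BMP signalling runs the other way along the crypt-villus axis: BMP ligands, made largely by the mesenchyme, act through receptor-activated SMAD proteins and limit stemness, and antagonists at the crypt bottom shield the stem cells. Tgfb signals through another branch of SMAD proteins and is known for restraining epithelial growth. The genes used as stem cell markers have different jobs, from an R-spondin receptor (Lgr5) and a transcription factor (Ascl2) to secreted proteins, surface receptors and an RNA-binding protein.

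Promoters of 7 of the 10 genes were found in a RefSeq table on build GRCm38.p6, 11 in all, each running from 250 bases before to 50 bases after a transcript start. The 4 below are printed because they belong to the most abundant marker, to 2 falling markers whose window held a Wnt-type motif, and to Prom1, which moved apart from the others. Capitals mark matches on either strand to the TCF/LEF core (CTTTGA or CTTTGT), the E-box CAGCTG, the GC-rich SMAD element GGCGCC or the SMAD palindrome GTCTAGAC.
Olfm4, chr14:80000052-80000351, plus strand: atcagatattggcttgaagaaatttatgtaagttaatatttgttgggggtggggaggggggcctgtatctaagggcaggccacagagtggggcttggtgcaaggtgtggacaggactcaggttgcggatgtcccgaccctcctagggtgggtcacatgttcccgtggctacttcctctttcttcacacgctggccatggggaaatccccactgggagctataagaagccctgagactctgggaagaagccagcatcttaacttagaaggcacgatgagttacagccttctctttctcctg
Tnfrsf19, its second promoter, chr14:61037938-61038237, minus strand: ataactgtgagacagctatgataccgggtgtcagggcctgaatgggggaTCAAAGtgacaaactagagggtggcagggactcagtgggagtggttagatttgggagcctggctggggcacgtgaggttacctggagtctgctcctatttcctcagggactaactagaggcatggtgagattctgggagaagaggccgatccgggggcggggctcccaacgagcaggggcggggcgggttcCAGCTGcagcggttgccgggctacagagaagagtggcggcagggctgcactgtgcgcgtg
Rgmb, its second promoter, chr17:15831016-15831315, minus strand: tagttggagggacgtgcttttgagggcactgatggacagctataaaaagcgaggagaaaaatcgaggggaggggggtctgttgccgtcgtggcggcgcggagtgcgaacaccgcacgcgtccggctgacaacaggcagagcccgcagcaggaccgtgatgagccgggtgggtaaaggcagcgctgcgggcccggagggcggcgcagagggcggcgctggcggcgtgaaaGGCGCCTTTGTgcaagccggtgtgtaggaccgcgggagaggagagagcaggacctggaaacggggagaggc
Prom1, its second promoter, chr5:44094719-44095018, minus strand: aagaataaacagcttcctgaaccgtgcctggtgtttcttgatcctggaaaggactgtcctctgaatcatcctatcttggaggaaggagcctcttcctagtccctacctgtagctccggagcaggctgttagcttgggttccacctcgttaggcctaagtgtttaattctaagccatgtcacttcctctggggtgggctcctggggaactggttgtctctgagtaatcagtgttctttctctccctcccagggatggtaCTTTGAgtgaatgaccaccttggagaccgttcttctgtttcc
The Olfm4 window held none of the motifs. The Tnfrsf19 window held 1 TCF/LEF core and 1 E-box. In the Rgmb window a GC-rich SMAD element and a TCF/LEF core overlapped by 1 base, so they appear as a single run of capitals. The Prom1 window held 1 TCF/LEF core. For Tnfrsf19, Rgmb and Prom1 the window printed is the one with this core, and their other promoters held none. Of 32851 RefSeq mouse promoters of 300 bases, 31.2% held a TCF/LEF core, 16.3% the E-box, 11.9% the GC-rich SMAD element and 0.213% the palindrome. Among the 11 promoters of the markers, 3 held a TCF/LEF core, 1 the E-box, 2 the GC-rich SMAD element and 0 the palindrome. A match is a description of letters in the window and not a binding site.

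The BMP table gives counts divided by a size factor per sample, called normalized counts below, from 21358620 to 24784834 recovered reads per sample. Intervals and floors from reads cover counting error only. The TGFb table gives TPM, a unit scaled by transcript length, with unknown depth. Sums of normalized counts were 19250832 to 20518942 in controls, 26268636 to 29004576 with BMP2 and 25574455 to 26979289 with BMP4. With every sample set to the same total, the median of all genes moved by -0.45 (log2) for BMP2 and -0.39 for BMP4, and by at most 0.07 in size for the other BMP ligands. The split of all called genes moved with it: 5420 higher and 5657 lower with BMP2 as deposited became 3627 and 7783, and 4964 and 4633 with BMP4 became 3100 and 6864. For BMP7 the split of 2833 higher and 1940 lower became 2587 and 2725 with the same total and 2716 and 2938 after quantile normalization, which turned the 2429 and 1455 of BMP5 into 2397 and 2413. Id1, a direct BMP target used as a check that a ligand acted, lay at 112 to 171 normalized counts in controls, 124 to 136 with BMP3, 667 to 1070 with BMP5, 1480 to 2330 with BMP7, 1960 to 3510 with BMP4 and 2700 to 2970 with BMP2. It rose in the TGFb table from 7.705 to 9.714 TPM in controls to 49.52 to 79.2 TPM with Tgfb, with no overlap.

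Levels can be compared between genes only per transcript length, so the order of the markers in untreated organoids was taken from TPM. Olfm4 led at 2385 ± 220 TPM (SD, n = 3), followed by Smoc2 at 218.7 ± 13.2, Prom1 at 167.4 ± 5.62, Cdca7 at 134.4 ± 3.5, Lrig1 at 74.71 ± 2.33 and Rgmb at 66.59 ± 0.802. Lgr5 stood at 50.64 ± 9.89 TPM, Msi1 at 29.5 ± 0.798, Ascl2 at 12.86 ± 1.07 and Tnfrsf19 at 4.926 ± 0.621. The samples of neighbours in this order did not overlap. The gene that names the stem cell, Lgr5, was thus below 6 of the other markers.

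The first comparison asks which ligands lowered the markers, and by how much. BMP4 lowered all 10 of the 10 markers (31.4% of 14746 tested genes were lower) and raised 0 (33.7% were higher), and the median log2 change over the markers was -4.49, against 0.04 over all tested genes. BMP2 lowered 9 of 10 (38.4% of tested genes were lower), with a median of -3.56 against -0.03, and raised Prom1 (36.8% of tested genes were higher), a rise that was not called with the same total in every sample (0.23, adjusted p 0.0841) or after quantile normalization (0.06, adjusted p 0.662). BMP7 lowered 8 of 10 (13.2% of tested genes were lower), raised Prom1 (19.2% were higher) and left Ascl2 uncalled, with a median of -1.23 against -0.05. BMP5 lowered 4 of 10, namely Smoc2, Rgmb, Lrig1 and Msi1 (9.87% of tested genes were lower), and raised Prom1 (16.5% were higher), with a median of -0.59 against -0.03. Tgfb lowered 9 of 10 (29.3% of 12959 tested genes were lower) and raised Prom1 (27.4% were higher), with a median of -1.56 against -0.04. BMP3 changed 0 of 10 markers and 0% of tested genes by limma. These comparisons were made with limma across all tested genes of a table with Benjamini-Hochberg adjustment, called at an adjusted p under 0.05. In bulk RNA, fewer stem cells and less RNA of these genes per cell cannot be told apart. The comparisons within the BMP table use the same controls.

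**Figure D1:**
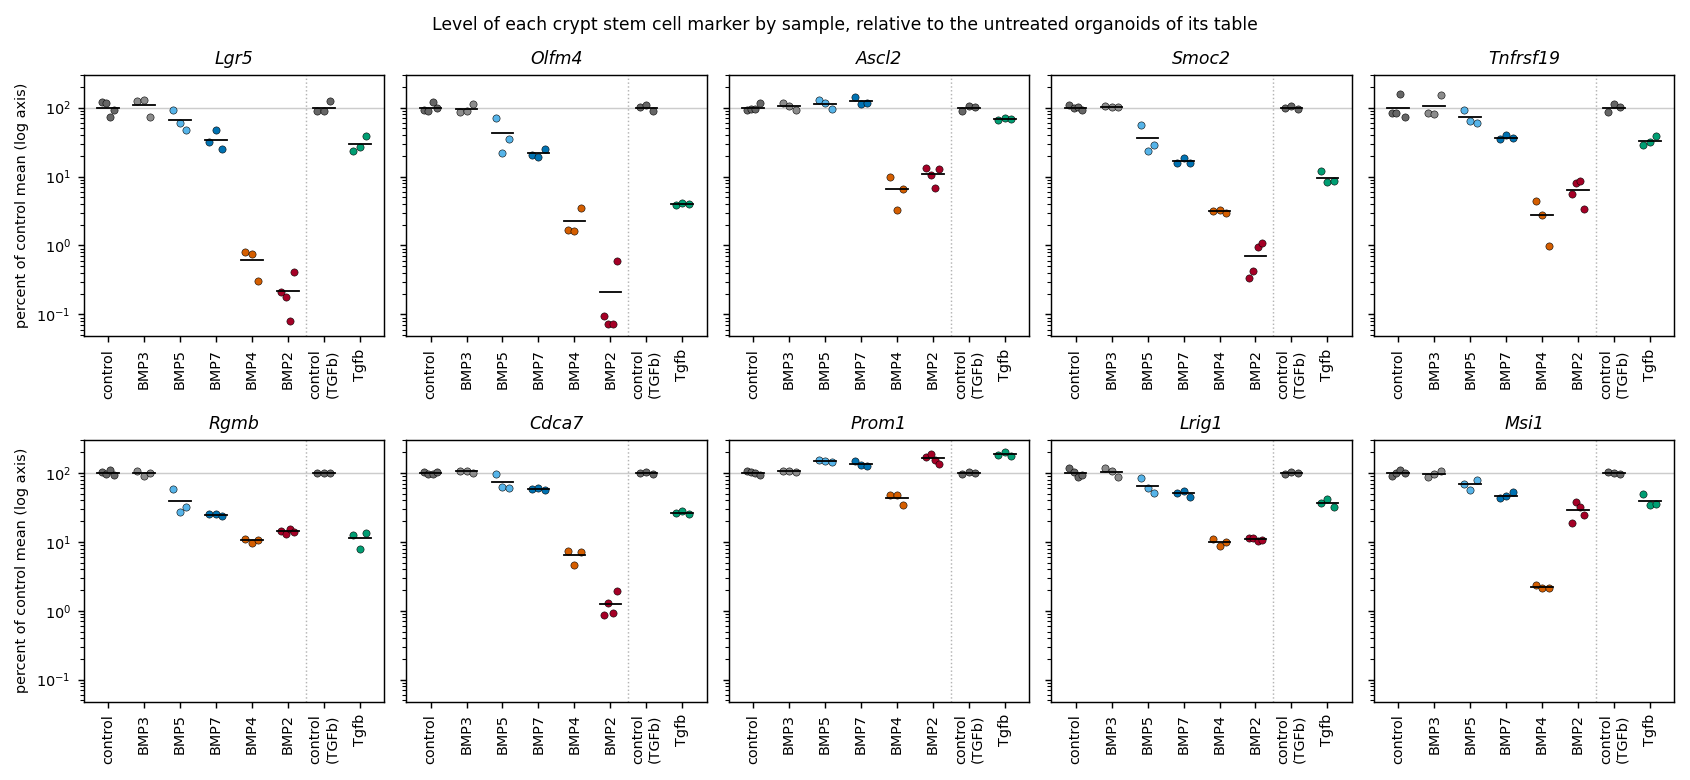
Level of each marker in every sample, as a percent of the mean of the untreated samples of its table (log axis), by group. Points are samples and bars are group means. The dotted line separates the BMP table from the TGFb table. Lgr5 and Olfm4 reach 0.219% and 0.208% with BMP2, while Prom1 stays at or above 43% in every group mean.

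Lgr5 (ENSMUSG00000020140), the R-spondin receptor, was taken to at most 29 reads in every sample by BMP2 and by BMP4. It measured 5210, 5050, 3150 and 3950 normalized counts in control replicates II, III, IV and VI. With BMP2 it measured 9.08, 7.67, 3.53 and 17.7 in the same order, which were 8, 6, 3 and 14 reads. With BMP4 replicates II, III and VI gave 34.4, 33.1 and 13.2, from 29, 29 and 11 reads. Every BMP2 and BMP4 sample was far below the lowest control, and the mean fell 457-fold with BMP2 and 161-fold with BMP4. On the log2 scale Lgr5 fell by 8.84 with BMP2 (SE 0.375, adjusted p 5.89e-13) and fell by 7.37 with BMP4 (SE 0.405, adjusted p 6.8e-11). BMP7 gave 1360, 2050 and 1070, 34.4% of the control mean, and a log2 change of -1.56 (adjusted p 0.00632). BMP5 gave 4010, 2640 and 2040, of which the first lay among the controls. Each was below the control of its own replicate number (5210, 5050 and 3950 for II, III and VI). The log2 change of -0.61 was not called (95% interval -1.46 to 0.24, adjusted p 0.294). Over 17 alternatives its adjusted p ran from 0.054 to 0.635. With Tgfb Lgr5 measured 11.83, 13.68 and 19.43 TPM against 44.66, 45.2 and 62.05 in controls, a log2 change of -1.70 (adjusted p 0.000703).

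Ascl2 (ENSMUSG00000009248), the Wnt-responsive transcription factor that sustains the stem cell programme, followed another pattern. It measured 290, 298, 295 and 363 normalized counts in controls. BMP2 lowered it to 42, 33.2, 21.2 and 40.5, and BMP4 to 30.8, 10.3 and 20.3, which were 11% and 6.57% of the control mean (log2 changes -3.19 and -3.98, adjusted p 1.13e-09 and 7.92e-10). The other 2 active BMP ligands did not lower it. BMP5 gave 404, 359 and 300, and BMP7 gave 439, 349 and 363, so that every one of these samples was above the lowest control and both groups overlapped with the controls. The log2 changes of 0.18 (95% interval -0.38 to 0.75) and 0.30 (-0.27 to 0.86) were not called. Tgfb left 8.435, 9.051 and 8.66 TPM against 11.65, 13.64 and 13.31, a fall of 0.51 on the log2 scale (SE 0.0824, adjusted p 0.00237). This was the smallest of the 9 falls with Tgfb in these 10 markers.

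Olfm4 (ENSMUSG00000022026), a secreted glycoprotein, was the marker with the deepest mean loss with BMP2, level with Lgr5. Controls II, III, IV and VI measured 85700, 84000, 110000 and 91100 normalized counts. With BMP2 it measured 88.5, 66.5, 68.2 and 549, so that 3 samples lay together and replicate VI stood apart. BMP4 left 1550, 1520 and 3250, and BMP7 left 19300, 18000 and 23400. No treated sample of these groups overlapped with the controls. The log2 changes were -9.55 with BMP2 (SE 0.495, adjusted p 5.01e-12), -5.55 with BMP4 (adjusted p 5.12e-08) and -2.20 with BMP7 (adjusted p 0.00404). BMP5 gave 64800, 20400 and 32900, all below the lowest control, with a log2 change of -1.39 that missed the threshold (adjusted p 0.0632). With replicate numbers as blocks, since these numbers pair the samples, the change of -1.45 was called (adjusted p 0.0266), as it was without BMP5 replicate II (-1.83, adjusted p 0.0247), with the same total in every sample (-1.43, adjusted p 0.0487) and with only BMP5 and control samples in the fit (-1.39, adjusted p 0.0172). Over all 17 alternatives the adjusted p ran from 0.0172 to 0.28. Tgfb took Olfm4 from 2416, 2589 and 2152 TPM to 91.84, 98.09 and 96.69, which was 4.01% of the control mean. Its log2 change of -4.62 was the deepest among the markers with Tgfb.

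Smoc2 (ENSMUSG00000023886), a secreted matricellular protein, fell with every active ligand. It measured 7130, 6390, 6570 and 5960 normalized counts in controls and 21.6, 28.1, 61.2 and 70.9 with BMP2. With BMP4 it measured 207, 216 and 191, with BMP7 1030, 1190 and 1020, and with BMP5 3700, 1550 and 1880. The groups were in the order BMP2, BMP4, BMP7, BMP5, control from lowest to highest, and no neighbours overlapped. In that order of ligands the log2 changes were -7.29, -4.98, -2.59 and -1.56 (largest adjusted p 0.00111, with BMP5). Smoc2 had the lowest percent remaining under BMP7 (16.6%), where no other marker overlapped with it. Under BMP5 it kept 36.5% (23.8% to 56.8%), overlapping with Rgmb (27.2% to 58.8%) and Olfm4 (22% to 69.9%). With Tgfb it measured 26.18, 18.39 and 18.62 TPM against 216.7, 232.8 and 206.6, which was 9.63% of the control mean. Mesenchymal cells also make Smoc2, and the summed level of 5 mesenchymal marker genes was at most 55.36 normalized counts in any sample of the BMP table. That sum was highest with BMP2 (33.3 to 55.36), where Smoc2 itself was 21.6 to 70.9. Whether mesenchymal cells made part of the Smoc2 left there was not tested.

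The surface receptors were Rgmb (ENSMUSG00000048027), a BMP co-receptor, Tnfrsf19 (ENSMUSG00000060548, also called Troy), a Wnt target of the TNF receptor family, and Lrig1, an inhibitor of ErbB receptors. Rgmb measured 3590, 3440, 3840 and 3270 normalized counts in controls, 507, 458, 553 and 492 with BMP2, 391, 341 and 377 with BMP4, 903, 896 and 839 with BMP7, and 2080, 962 and 1120 with BMP5. It was called with BMP2 (log2 change -2.81, adjusted p 1.38e-11), BMP4 (-3.25, adjusted p 3.84e-11), BMP7 (-2.00, adjusted p 1.29e-07) and BMP5 (-1.43, adjusted p 7.28e-06). No group overlapped with the controls. Tgfb left 11.4% of Rgmb, at 8.435, 5.264 and 9.083 TPM against 67.29, 66.76 and 65.72. Tnfrsf19 measured 310, 314, 588 and 267 in controls, and replicate IV stood apart. In the BMP3 group replicate IV was also the highest, at 568 against 311 and 297. BMP2 left 20.4, 29.4, 31.8 and 12.7, and BMP4 left 16.6, 10.3 and 3.59, the last from 3 reads (log2 changes -3.92 and -5.18, adjusted p 1.28e-08 and 2.93e-09). BMP7 left 129, 146 and 133, a log2 change of -1.37 (adjusted p 0.0124). The BMP5 samples at 340, 239 and 222 overlapped with the controls (-0.42, 95% interval -1.25 to 0.41, adjusted p 0.472). Tgfb left 33.3% of Tnfrsf19, at 1.407, 1.584 and 1.927 TPM against 4.275, 5.513 and 4.991.

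Lrig1 (ENSMUSG00000030029) marks a stem cell population wider than the Lgr5 cells, and its losses were of like size with BMP2 and BMP4. It measured 5990, 5170, 4400 and 4800 normalized counts in controls, 577, 578, 518 and 544 with BMP2, and 555, 447 and 516 with BMP4. These were 10.9% and 9.94% of the control mean (log2 changes -3.19 and -3.32, adjusted p 5.93e-13 and 4.87e-12). BMP7 gave 2630, 2790 and 2260 and BMP5 gave 4300, 3070 and 2630, all below the lowest control. The log2 changes were -0.99 with BMP7 (adjusted p 4.48e-05) and -0.63 with BMP5 (adjusted p 0.00341). Tgfb left 27.63, 31.26 and 23.69 TPM against 72.08, 76.51 and 75.55 in controls.

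Cdca7 (ENSMUSG00000055612) encodes a Myc-responsive nuclear protein linked to dividing cells, and Msi1 (ENSMUSG00000054256) an RNA-binding protein of progenitor cells. Cdca7 measured 4780, 4610, 4520 and 4910 normalized counts in controls, 40.9, 60.1, 43.5 and 89.9 with BMP2, and 341, 217 and 337 with BMP4, for log2 changes of -6.37 and -4.00 (adjusted p 8.11e-14 and 5.58e-11). BMP7 gave 2720, 2800 and 2670, a log2 change of -0.78 (adjusted p 0.00954). BMP5 gave 4520, 2950 and 2810, where replicate II reached the lowest control, replicate IV. Each was below the control of its own number (4780, 4610 and 4910 for II, III and VI). The change of -0.49 was not called (adjusted p 0.106). It was called without BMP5 replicate II (-0.71, adjusted p 0.026), by DESeq2 on recovered reads (-0.46, adjusted p 0.0436) and with only BMP5 and control samples in the fit (adjusted p 0.0455). Over 17 alternatives its adjusted p ran from 0.026 to 0.357. Msi1 measured 987, 1100, 1230 and 1110 in controls, 208, 425, 359 and 273 with BMP2, and 26.1, 24 and 23.9 with BMP4. The BMP4 samples lay below every BMP2 sample, with log2 changes of -5.43 against -1.85 (adjusted p 2.42e-13 and 8.16e-09). BMP7 gave 472, 508 and 577 for Msi1, and BMP5 gave 764, 629 and 865. The Msi1 call with BMP5 (-0.56, adjusted p 0.0268) was lost without BMP5 replicate III (adjusted p 0.15) and without control replicates III, IV or VI (adjusted p 0.0513, 0.0683 and 0.0533), within a range of 0.00641 to 0.15 over 17 alternatives. With Tgfb Cdca7 measured 35.69, 37.28 and 33.76 TPM against 134.6, 137.8 and 130.8, and kept 26.5%. Msi1 measured 14.36, 10.18 and 10.62 TPM against 30.4, 29.19 and 28.89, and kept 39.7%. The largest adjusted p among the 9 falling markers with Tgfb was the 0.00237 of Ascl2.

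Prom1 (ENSMUSG00000029086), a pentaspan membrane glycoprotein also known as CD133, is found in stem cells and in other crypt cells, and among the active ligands it fell with BMP4 only. It measured 7750, 7510, 7240 and 6710 normalized counts in controls and 12600, 13600, 11400 and 9910 with BMP2, a mean of 163% of control. BMP5 gave 11100, 10800 and 10600, and BMP7 gave 11000, 9650 and 9230. BMP4 gave 3480, 3450 and 2500, or 43% of the control mean. Prom1 was thus above every control in all samples of BMP2, BMP5 and BMP7 and below every control in all samples of BMP4. The log2 changes were 0.69 with BMP2 (adjusted p 1.13e-05), 0.57 with BMP5 (adjusted p 0.00126), 0.45 with BMP7 (adjusted p 0.00682) and -1.23 with BMP4 (adjusted p 4.27e-08). The BMP2 rise was not called under the other scalings, as given above. Tgfb raised Prom1 from 161.1, 171.9 and 169.3 TPM to 303.4, 340.2 and 298, a log2 change of 0.90 (adjusted p 0.000144).

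With BMP3 the 10 markers had log2 changes from -0.05 to 0.10, and all 10 overlapped with the controls. Lgr5 measured 5440, 5560 and 3120 normalized counts in BMP3 replicates II, III and IV, and Olfm4 81100, 82800 and 105000. By limma 0 markers had an unadjusted p under 0.05, and 110 of all 14746 tested genes did, a smaller share than 0.05. The replicate numbers pair BMP3 with control samples, and the fit left the spread between numbers in its error, so it can be too cautious here. The counts of adjusted calls among the markers were 0 by edgeR, 0 by DESeq2 and 0 with replicate numbers as a block.

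**Figure D2:**
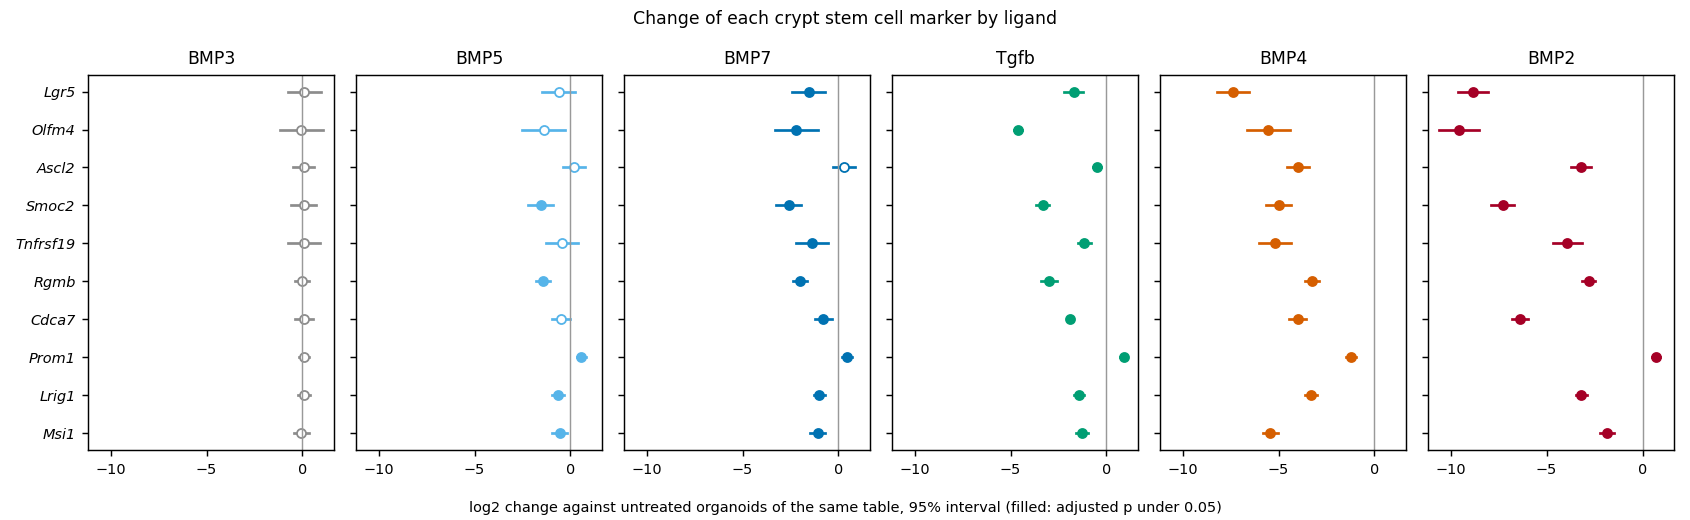
Change of each marker against the untreated samples of the same table (log2 scale), with 95% intervals from limma, in 1 panel per ligand. Filled points have an adjusted p under 0.05. With BMP4 all 10 points lie below 0, while Prom1 lies above 0 with BMP5, BMP7, Tgfb and BMP2, the last of which is not called under 2 other scalings.

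The ligands were then compared with each other within the BMP table. BMP2 and BMP4 differed in 9 of 10 markers, but not in a single direction (66.8% of tested genes differed). Olfm4 was lower with BMP2 by 4.00 on the log2 scale (difference -4.00, SE 0.535, adjusted p 2.46e-06). Cdca7 (difference -2.37, adjusted p 1.73e-08), Smoc2 (-2.31, adjusted p 2.99e-06) and Lgr5 (-1.47, adjusted p 0.00358) were also lower with BMP2. In Lgr5 the groups overlapped, since BMP2 replicate VI at 17.7 was above BMP4 replicate VI at 13.2. The opposite held for Msi1, higher with BMP2 by 3.58 (SE 0.18, adjusted p 7.52e-12), and for Prom1, higher by 1.92 (adjusted p 7.14e-11). Tnfrsf19 (difference 1.26, adjusted p 0.00868), Ascl2 (0.79, adjusted p 0.0146) and Rgmb (0.44, adjusted p 0.0296) were higher with BMP2 by less. These last 3 calls rested on single samples or settings. Without BMP4 replicate VI the adjusted p of Tnfrsf19 was 0.0923. The adjusted p of Ascl2 was 0.16 without BMP4 replicate III. For Rgmb it was 0.0712 without BMP2 replicate IV, 0.0999 without BMP4 replicate III, 0.0534 without BMP4 replicate VI and 0.0716 with the same total. With only the compared groups in the fit the adjusted p was 0.123 for Ascl2 and 0.0605 for Tnfrsf19. Over 17 alternatives it ran from 0.000972 to 0.16 for Ascl2, from 0.00141 to 0.0923 for Tnfrsf19 and from 0.0117 to 0.0999 for Rgmb. Lrig1 did not differ beyond its error (0.14, 95% interval -0.17 to 0.44, adjusted p 0.431).

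**Figure D3:**
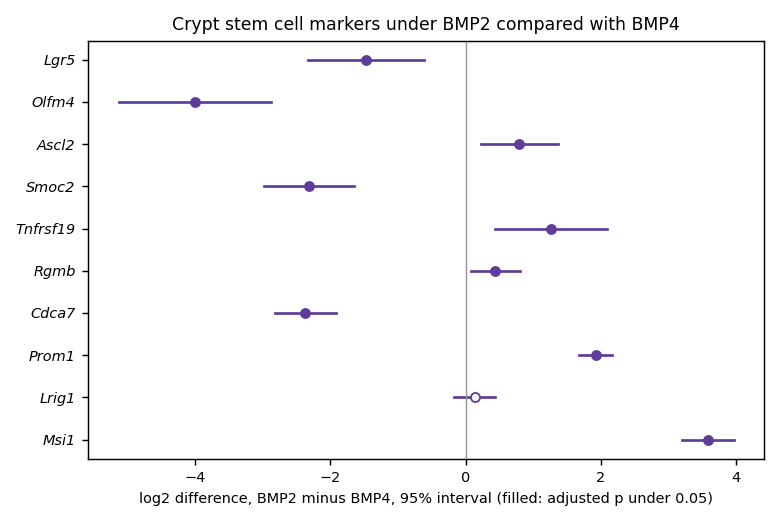
Difference between BMP2 and BMP4 for each marker (log2, BMP2 minus BMP4) with 95% intervals from limma. Filled points have an adjusted p under 0.05. Olfm4, Cdca7, Smoc2 and Lgr5 lie left of 0 and Msi1, Prom1, Tnfrsf19, Ascl2 and Rgmb right of it.

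Against the other active BMP ligands, BMP2 and BMP4 gave the lower values. All 10 markers were lower with BMP4 than with BMP7 (59.8% of tested genes differed in either direction) and than with BMP5 (60.1%). After quantile normalization 4709 and 4775 of the 14746 tested genes were lower with BMP4 than with BMP7 and BMP5. Likewise 4381 and 4489 were lower with BMP2 than with BMP7 and BMP5. With the same total in every sample these counts were 6641, 6925, 6948 and 7251. BMP2 lay below BMP7 in 9 markers (62.8% of tested genes differed in either direction) and below BMP5 in 9 (65%). Prom1 was the exception in both, with a difference of 0.25 against BMP7 (adjusted p 0.0725) and 0.12 against BMP5 (adjusted p 0.369). The sign of both Prom1 differences turned with the scaling: with the same total in every sample they were -0.14 (adjusted p 0.358) and -0.30 (adjusted p 0.0519), and after quantile normalization -0.28 (adjusted p 0.0543) and -0.43, the last called (adjusted p 0.00509). The difference against BMP7 was called as higher with BMP2 by DESeq2 (0.27, adjusted p 0.0407) and with replicate numbers as a block (0.25, adjusted p 0.0114). It was also called without BMP2 replicate VI (0.33, adjusted p 0.0181) and without BMP7 replicate II (0.32, adjusted p 0.0439). Msi1 showed the smallest of the 9 gaps between BMP2 and BMP5 (-1.29), and Lgr5 the widest (-8.23). Rgmb, the BMP co-receptor, and Msi1 showed the smallest gaps between BMP2 and BMP7, at -0.81 and -0.76.

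BMP5 and BMP7 did not differ in any marker after adjustment (0.0136% of tested genes differed). An unadjusted limma p under 0.05 was found for 6 markers and for 347 of all 14746 tested genes, a smaller share than 0.05. This fit left the pairing by replicate number in its error, and with the numbers as a block 0 markers were called. By edgeR 0 markers were called, and DESeq2 called 1, Smoc2 (log2 difference 1.14, adjusted p 0.0431). The intervals leave room for a difference: it was 1.04 for Smoc2 (95% interval 0.33 to 1.74), 0.95 for Lgr5 (0.04 to 1.86) and 0.57 for Rgmb (0.19 to 0.96), each higher with BMP5. The 3 BMP5 samples were uneven. Replicate II was the highest of the 3 for Lgr5, Olfm4, Ascl2, Smoc2, Tnfrsf19, Rgmb, Cdca7, Prom1 and Lrig1, and its Id1 of 667 was below 1070 and 792. The part of this unevenness in the BMP5 results was not tested beyond leaving out each sample.

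Depth of loss also varied by gene within a ligand, taken as the percent of the control mean that remained. With BMP2, Olfm4 (0.208%), Lgr5 (0.219%), Smoc2 (0.698%) and Cdca7 (1.25%) formed the low end, each overlapping with its neighbour. The Olfm4 value rested on BMP2 replicate VI, and without it, an alternative chosen after seeing the data, the mean was 0.0803% of control. No other percent of these 10 markers moved by over 1.5 times when a single sample was left out. Tnfrsf19 (6.38%), Lrig1 (10.9%), Ascl2 (11%), Rgmb (14.2%) and Msi1 (28.6%) followed, and no sample of these 5 was as low as any sample of the first 4. With BMP4, Lgr5 (0.62%) stood below Msi1 (2.23%), Olfm4 (2.27%), Tnfrsf19 (2.75%) and Smoc2 (3.14%), which overlapped among themselves in this order. Cdca7 (6.34%), Ascl2 (6.57%), Lrig1 (9.94%) and Rgmb (10.5%) came next. Msi1 thus kept the most of the 9 falling markers with BMP2, and with BMP4 it was at the low end, overlapping with Olfm4. The order under BMP7 began with Smoc2 (16.6%), Olfm4 (21.8%) and Rgmb (24.9%), and Rgmb (up to 25.5%) overlapped with Lgr5 (from 24.7%). The same 3 genes had the lowest means under BMP5, at 36.5%, 42.5% and 39.2%, and under Tgfb, at 9.63%, 4.01% and 11.4%. Under BMP5 all neighbours from Smoc2 to Cdca7 overlapped, with Olfm4 at 22% to 69.9% and not called, so the order there is not resolved. Lgr5 lay in the middle of these 3 orders, at 34.4% (BMP7), 66.7% (BMP5) and 29.6% (Tgfb). The genes at the top end were Ascl2 and Prom1 with BMP5, BMP7 and Tgfb.

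The markers were set beside 20 other genes of the crypt base, Wnt targets among them, in a list chosen with earlier results known. BMP4 lowered 18 of these 20 and raised 0 (median log2 change -2.06), and BMP2 lowered 11 and raised 6 (median -0.98). With BMP5 3 were lower and 8 higher (median 0.25), with BMP7 4 and 7 (median 0.29), and with Tgfb 7 and 11 (median 0.64). Over all tested genes the medians lay between -0.05 and 0.04. The shares of all tested genes lower and higher were 31.4% and 33.7% with BMP4 and 38.4% and 36.8% with BMP2. They were 9.87% and 16.5% with BMP5, 13.2% and 19.2% with BMP7, and 29.3% and 27.4% with Tgfb. Under the same total or quantile normalization BMP2 lowered 13 or 12 of them and raised 3, and for BMP7 the split was 5 or 6 lower and 6 higher. Aqp4, a water channel, fell with each active ligand, and its log2 changes were -8.30 (BMP2), -6.05 (BMP4), -3.11 (BMP7), -2.25 (BMP5) and -4.55 (Tgfb). Gkn3, a secreted gastrokine, rose by 2.12 with BMP5 (adjusted p 0.000158). Its level there was 1697 ± 214 normalized counts (SD, n = 3) against 392.8 ± 76.4 in controls (SD, n = 4). Gkn3 also rose with BMP7 (1.40, adjusted p 0.00429) and Tgfb (2.12, adjusted p 7.69e-05), and it fell with BMP2 (-3.88, adjusted p 2.27e-09) and BMP4 (-4.86, adjusted p 1.32e-09). For the 10 markers the medians were below 0 with each active ligand, and for the 20 others they were below 0 with BMP2 and BMP4.

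**Figure D4:**
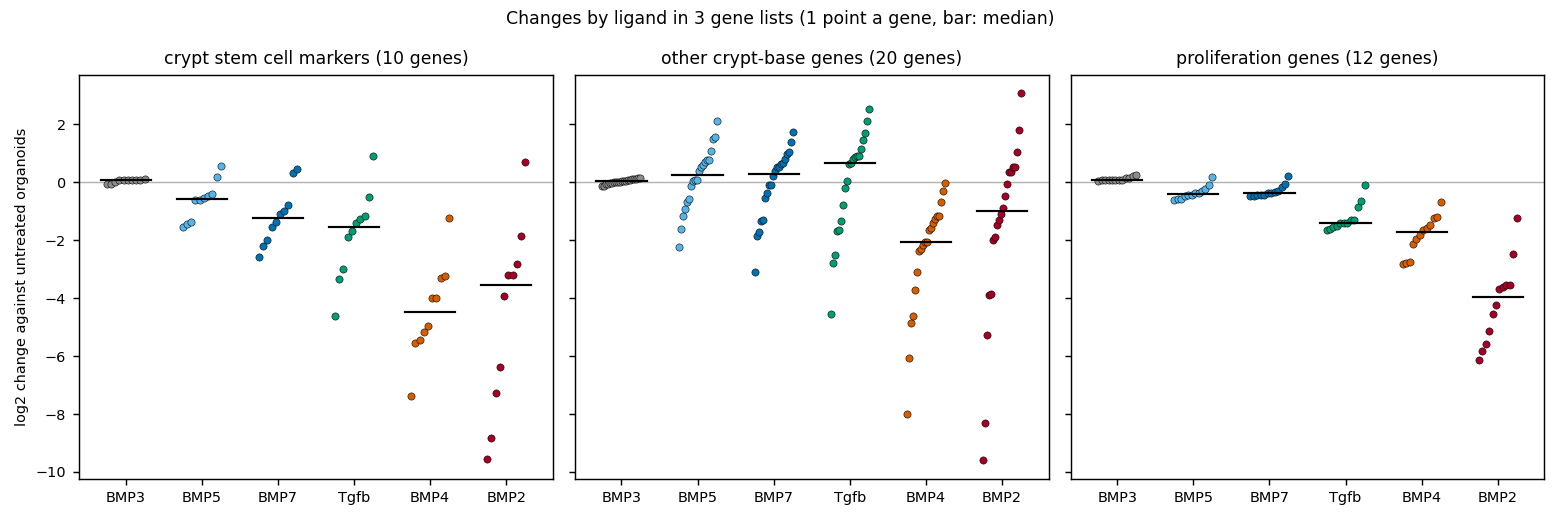
Change of each gene against untreated organoids (log2 scale) by ligand, for the 10 markers, 20 other crypt-base genes and 12 proliferation genes. Points are genes and bars are medians. With BMP5, BMP7 and Tgfb the median of the markers lies below 0 (-0.59, -1.23 and -1.56) and that of the other crypt-base genes above it (0.25, 0.29 and 0.64).

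Stem cells of the crypt divide, so 12 genes of the cell cycle and DNA synthesis were read beside the markers. BMP2 lowered 12 of 12 (median log2 change -3.95), BMP4 12 of 12 (median -1.73) and Tgfb 11 of 12 (median -1.41). Of all tested genes, 38.4%, 31.4% and 29.3% were lower with BMP2, BMP4 and Tgfb. With BMP5 and BMP7 1 of 12 was lower in each (medians -0.41 and -0.38), or 2 of 12 after quantile normalization. The shares of all tested genes that were lower with BMP5 and BMP7 were 9.87% and 13.2%. Their summed level was 47010 to 57250 normalized counts in controls, 4151 to 6470 with BMP2, 14550 to 21510 with BMP4, 30790 to 54160 with BMP5 and 33440 to 53060 with BMP7. So with BMP7 8 markers fell while the sum of the proliferation genes overlapped with the controls. Whether the 2 gene groups differ in their response was not tested.

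Another list held 7 genes of reserve, slow-cycling or revival stem cells. BMP2 raised 3 and lowered 2 of them (median log2 change 0.29), BMP4 raised 1 and lowered 2 (0.22), BMP5 and BMP7 raised 3 and lowered 1 each (0.01 and -0.20), and Tgfb raised 3 and lowered 3 (0.19). Of all tested genes, 36.8% were higher and 38.4% lower with BMP2, 33.7% and 31.4% with BMP4, and 27.4% and 29.3% with Tgfb. With BMP5 16.5% were higher and 9.87% lower, and with BMP7 19.2% and 13.2%. Whether the counts of these 7 genes depart from such shares was not tested. With the same total in every sample the medians of BMP2, BMP4 and BMP5 turned to -0.16, -0.18 and -0.03, and that of BMP5 was -0.08 after quantile normalization. Clu, a secreted chaperone that marks revival stem cells after injury, had 3440 ± 768 normalized counts in controls (SD, n = 4). BMP2 samples had 126000 ± 10100 (SD, n = 4), BMP5 samples 48300 ± 16400 and BMP7 samples 50170 ± 6730 (SD, n = 3 each; largest adjusted p 1.55e-07). Lgr5 was at 0.219%, 66.7% and 34.4% of control with BMP2, BMP5 and BMP7. With BMP4 Clu had 5087 ± 1730 and was not called (log2 change 0.54, adjusted p 0.137), where Lgr5 fell to 0.62% of control. The log2 change of Clu with Tgfb was 7.45 (adjusted p 2.43e-06), where Lgr5 kept 29.6%. Not all genes of this list went with Clu. Tert and Hopx fell with BMP2 (log2 changes -2.31 and -2.16), and Hopx also fell with BMP5 (-0.60).

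Markers of other epithelial cell types moved as well, and their part in the falls was not tested. The summed level of 8 enterocyte markers was 80400 to 148200 normalized counts in controls, 455100 to 561500 with BMP4 and 37400 to 93200 with BMP2. It was 49420 to 93150 with BMP5 and 41580 to 91180 with BMP7. BMP4 raised 7 of the 8 enterocyte markers and lowered 0 (33.7% of all tested genes were higher and 31.4% lower). BMP2 raised 1 and lowered 4 (36.8% of all tested genes were higher and 38.4% lower), or raised 0 under either other scaling. Paneth cells neighbour the stem cells, and the sum of 6 of their markers was 114200 to 142000 in controls, 36450 to 97860 with BMP2, 56140 to 119000 with BMP4, 95490 to 126700 with BMP5 and 80700 to 99220 with BMP7. BMP2 lowered 6 of 6 Paneth markers (38.4% of all tested genes were lower), and BMP5 and BMP7 lowered 0 (9.87% and 13.2%). BMP4 lowered 0 of them as deposited (31.4%), but 6 of 6 with the same total or after quantile normalization. Under these 2 scalings 6864 and 4929 of 14746 tested genes were lower with BMP4. The sum of 6 goblet markers was 22150 to 38210 in controls and 77530 to 132700 with BMP4. Fcgbp alone had a mean of 20000 in controls and 71700 with BMP4. The sum of 5 tuft markers was 362.7 to 430.3 in controls and 1476 to 2315 with BMP2. It was 774.1 to 782.5 with BMP4, 545.5 to 627.8 with BMP5 and 619.8 to 762.4 with BMP7. Pou2f3, a gene of this tuft list, fell with BMP4 (log2 change -0.80). Avil alone had a mean of 131.5 in controls and 1250 with BMP2 within this tuft sum. In the TGFb table the proliferation genes summed to 1181 to 1306 TPM in controls and 543.1 to 595.6 with Tgfb, the enterocyte markers to 6047 to 8314 and 3683 to 4487, and the Paneth markers to 14110 to 17340 and 9797 to 12650. Tgfb lowered 5 and raised 3 of the 8 enterocyte markers (29.3% of all tested genes were lower and 27.4% higher). Of the 6 Paneth markers it lowered 2 and raised 1, Mmp7 (log2 change 0.86). The 6 general epithelial markers summed to 95740 to 106600 in controls and to more in every sample of each active ligand, up to 528200 to 665600 with BMP2, and none of the 6 was at 0 in any group. Krt8 alone had a mean of 34100 in controls and 285200 with BMP2. Of the 6, 5 were higher and 1 lower with BMP2, and likewise with Tgfb (27.4% of all tested genes were higher and 29.3% lower with Tgfb). Of the 7 mesenchymal marker genes, 5 were present in the BMP table and 7 in the TGFb table, and none of them passed the filter.

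Across the 20 samples of the BMP table, pairs of markers had Pearson correlations of log2(value + 1) taken over all 6 groups together. The median correlation of a marker with the other 9 ran from 0.721 (Msi1) to 0.939 (Lrig1), except for Prom1 at 0.169, whose correlations spanned -0.1 to 0.686. The 5 other genes most like Lgr5 were Zfp41 (0.988), Itpripl1 (0.987), Timeless (0.987), Elp3 (0.986) and Cldn2 (0.985), and the 3 most like Lrig1 were Mpp3 (0.993), Sfmbt1 (0.992) and Rasa3 (0.991). The samples share groups, so these are descriptions with no test.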

How the data were processed

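Expression was measured by mRNA sequencing, single-end, per the labels' protocols. The submitters' processing notes name Trim Galore, Salmon, DESeq2 and build GRCm39, without roles or versions. In the BMP table the deposited values are a signal, that is, gene counts scaled by a size factor for each sample and rounded to 3 digits. Of 180721 values at or below 20 reads, 100% were whole reads within 0.1 read, and 21% of values lie above 999 reads. The deposited TGFb and mesenchymal tables hold TPM.

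From these values limma 3.58.1 (R 4.3.3) was fitted with an intensity trend to log2(value + 1), for genes at a mean of at least 10 (BMP table, 6 groups in 1 fit) or 1 TPM. This left 14746 and 12959 genes. Log2 changes of low genes are understated. Tests were two-sided, with Benjamini-Hochberg adjustment over all tested genes and a threshold of 0.05. The members, lists, alternatives and rule for named genes were chosen with earlier results of these data known. Named were all members, at most 2 genes of each other list with the largest change, 5 genes most like Lgr5, 3 most like Lrig1, and Id1. Tert and Hopx are named besides, as genes that fell where Clu rose. The design foresaw edgeR for raw counts; the values were normalized, so edgeR 4.0.16 and DESeq2 1.42.0 on recovered reads were alternatives. Others were scaling, filters, pseudocount, a replicate block, the groups in the fit and each sample left out. The script was tested on simulated data. No 2 samples held identical values, and 0 columns were unmapped.

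Replicate numbers come from the titles. Deviations of same-numbered samples correlated at over 0.1 in every pair for BMP3, BMP4, BMP5 and BMP7 against control (0.158 to 0.553), so these numbers pair samples. For BMP2 they paired samples in part. Against control, replicates II, IV and VI correlated at 0.195, 0.421 and 0.308, and replicate III at 0.0182. Against BMP4 and BMP7, replicates II and VI correlated at 0.17 to 0.298, and replicate III at -0.04 and -0.107. Every pair of BMP2 and BMP5 was over 0.1 (0.108 to 0.251). For Tgfb the numbers did not pair samples (0.00405 to 0.0696). The labels name 2 sequencing runs without assigning samples, so a run effect cannot be told apart.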

Additional observations from a re-analysis of the deposited data

Results flagged for a closer look

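In the groups of 4 samples, a sample was singled out when its gap to the nearest other sample, divided by the range of the group, exceeded Dixon's 95% critical value. Over the 20 groups of a gene and condition so examined, chance gives about 1 in 20. Olfm4 in BMP2 replicate VI was 549 normalized counts, against 66.5 to 88.5 in the other BMP2 samples (ratio 0.954). Ascl2 in control replicate VI was 363, against 290 to 298 (ratio 0.89). Tnfrsf19 in control replicate IV was 588, against 267 to 314 (ratio 0.854), and in BMP3 replicate IV it was 568.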

How the results depend on the processing

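Of 1789 alternatives run over 110 results for single markers, 1759 kept direction and side of the threshold, 14 lost a call, 12 gained one and 4 turned in sign. All 4 were Prom1: BMP2 against BMP7 gave -0.14 when totals were made equal and -0.28 after quantile normalization, and BMP2 against BMP5 gave -0.30 and -0.43 (the last called, adjusted p 0.00509), against 0.25 and 0.12 as deposited. Prom1 between BMP2 and BMP7 was called by DESeq2 (adjusted p 0.0407), with the replicate block (0.0114), without BMP2 replicate VI (0.0181) and without BMP7 replicate II (0.0439).

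Of 196 alternatives for the 12 counts of called markers, 1 moved by over 1.5 times: DESeq2 found 1 marker that differed between BMP5 and BMP7, against 0. The count lower with BMP5 was 4, and 3 to 6 with a sample left out. BMP2 and BMP4 differed in 9 markers, and in 7 to 9 over the alternatives. The count with Tgfb was 9, and 8 with a filter at a mean of 10.

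With replicate numbers as a block, where they pair the samples, 5 markers were lower with BMP5, through Olfm4, and no other call changed. Where they pair BMP2 samples in part, the block gave 9 markers lower with BMP2 and 9 differing between BMP2 and BMP4. It gave 10 differing between BMP2 and BMP7, with Prom1 called (adjusted p 0.0114). For Tgfb, where they do not pair samples, it gave 9 lower. Own numbers correlated highest in 3 of 4 pairs for BMP2 against control and 1 of 3 for Tgfb.

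Reads limit Lgr5 with BMP2 (3 to 14 reads) and Tnfrsf19 with BMP4 (3 to 14 reads). The depth of the TPM tables is unknown.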

Other observations

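The markers were also read in the 2 mesenchymal samples, from duodenal cells of a PdgfraH2BeGFP mouse, 1 freshly isolated and 1 immortalised and sorted, with no replicates and so no comparison. Smoc2 was at 37.38 TPM in the fresh cells and 3.291 TPM in the immortalised cells. Lrig1 was at 13.93 and 17.4 TPM, Cdca7 at 11.81 and 13.59 TPM, and Rgmb at 11.01 and 9.009 TPM. Msi1 was at 7.141 and 0.6215 TPM. Lgr5 was listed at 0 in the fresh and at 0.1352 TPM in the immortalised cells, and Olfm4 and Ascl2 were listed at 0 in both. Prom1 was at 0.6341 TPM in the fresh cells and listed at 0 in the other sample, and Tnfrsf19 was at 0.2283 and 0.05557 TPM.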
